A study of Solanum tuberosum with 136 samples.

Results

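The primary buds of potato tubers of the cultivar Russet Burbank (Solanum tuberosum) are described here at week 12 of storage, for tubers held in 10 ppm ethylene and for control tubers. The comparison was taken from the library titles: 4 libraries carried the labels for bud, ethylene and time point 12, and 4 the same labels for control, 8 of the 68 bud libraries of the study, which sequenced as many of flesh. The time points in the titles equal the sampling weeks given in the study's design text and were read as weeks. The ethylene group had been in the gas continuously for 12 weeks. Buds were also sampled under ethylene at weeks 3, 6, 9 and 15, in air after 15 weeks of ethylene at weeks 16, 17 and 18, and in control storage from week 0, and the flesh of tubers was sampled at the same times. Both groups share the cultivar, and no other treatment, age or genotype is given in the labels. Nothing in the labels states whether the 4 libraries of a group are separate tubers or pools. The p-values refer to the spread between libraries within groups, estimated over all groups fitted together and not over the week 12 groups alone. This spread may be technical.

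Ethylene is a gaseous plant hormone that cells sense with receptors in internal membranes; binding of the gas releases a repression, and transcription factors then switch on response genes. A potato bud is dormant for a time after harvest and later forms the sprout, and continuous ethylene in a store is used to hold sprout growth back. The question of the comparison, as far as the title of the study gives it, was how this treatment bears on tuber dormancy in storage. The deposited tables list genes only by Soltu.DM identifiers and do not pair them with names, and 0 of the identifiers matched the reference gene table at hand, so genes are printed as identifiers, with no role. For each rule below, at most 2 higher and 2 lower genes are named.

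The 8 libraries held between 28.01 and 35.3 M counts, against a range of 16.6 to 50.9 M over the whole study, and counts were detected for 21371 to 22169 genes in each. The 10 most abundant genes held between 6.46% and 7.06% of the counts. Among the buds in air after ethylene, replicate 1 of week 17 stood apart: across genes, its mean Pearson correlation of log2(CPM + 2) with the rest of its group was 0.885, against 0.949 to 0.959 for the others of that group and 0.985 or more in the other bud groups. It is not part of the week 12 groups but enters the shared estimate of the spread, so results are also given without it. Levels are CPM, counts per M scaled by the trimmed mean of M-values (TMM), and SD and n refer to libraries.

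At week 12, ethylene and control buds differed in 2832 of 24328 genes tested, or 11.6%. Under ethylene 1330 genes were higher (5.47%) and 1502 were lower (6.17%), at an adjusted p below 0.05 in edgeR's quasi-likelihood test with Benjamini-Hochberg adjustment. Which direction held more genes turned round with DESeq2's size factors, with 1456 higher and 1294 lower. It also turned round without the week 17 library that stood apart, with 1967 higher and 1925 lower. Most changes were small: the median was 1.86-fold for the higher and 1.69-fold for the lower genes, 580 higher and 552 lower genes differed at least 2-fold, and 143 and 239 at least 4-fold. The 4 ethylene libraries lay wholly above the 4 control libraries for 1133 of the higher genes and wholly below them for 1234 of the lower genes, against 1833 and 2238 of all 24328 genes tested. Of the genes past the threshold, 88 had no counts in any ethylene bud and 26 had none in any control bud. Genes without counts were not counted over all genes tested, so these numbers are not read as a difference between groups. Genes detected per library also differed, at 21371 to 21768 in ethylene buds and 21624 to 22169 in control buds. The share of genes called moved with level, at 3.54% of the genes under 1 CPM, 12.1% from 1 to 10 CPM, 15.3% from 10 to 100 CPM and 16.5% above 100 CPM.

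**Figure D1:**
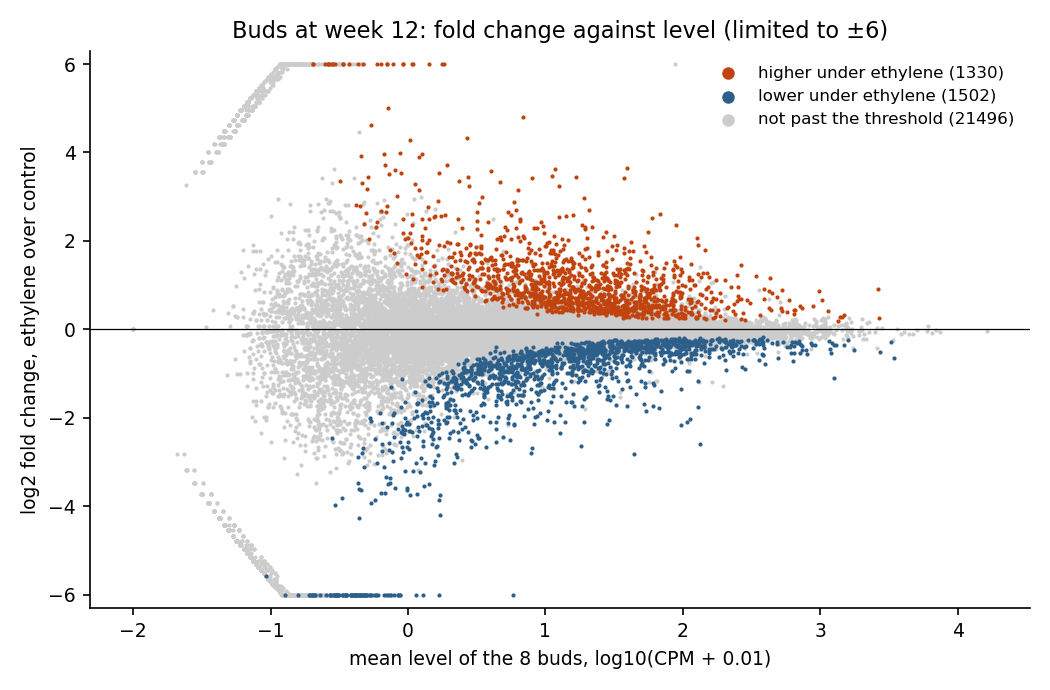
Log2 fold change (ethylene over control, limited to 6 in either direction) against the mean level of the 8 buds of week 12 (log10 of CPM + 0.01), 1 point per gene tested. The 1330 higher genes (orange) and 1502 lower genes (blue) spread on both sides of zero, and genes past the threshold were 3.54% of those under 1 CPM and 16.5% of those above 100 CPM.

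The count depended on single libraries. Without ethylene replicate 4 the count of genes past the threshold was 1858, and without the week 17 library that stood apart it was 3892. Ethylene replicate 4 lay farthest from the control mean in 45.7% of the genes called, against 31.6%, 13.5% and 9.29% for ethylene replicates 1, 3 and 2. Among the control buds, replicate 2 lay farthest from the ethylene mean, in 42.1% of the genes called. All 2832 genes kept their sign in each of the fits that left out 1 of the 8 libraries, and 62.8% of them stayed past the threshold without ethylene replicate 4. Tested against a fold of 1.5 in place of no change, 296 genes were higher and 208 lower.

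The largest rises of genes with at least 5 CPM in a group and no overlap between groups were those of Soltu.DM.01G039320 and Soltu.DM.08G010990. Soltu.DM.01G039320 was at 17.1, 9.24, 12.7 and 14.05 CPM in the 4 ethylene buds, against 0.918, 0, 0 and 1.06 CPM in the 4 control buds. It was 28.04-fold higher under ethylene (log2 fold change 4.81 ± 0.60, SE, adjusted p = 4.12e-08, edgeR). In control buds this gene stood at 4.84 ± 1.40 CPM at week 0 and at no counts at week 9 (SD, n = 4), and in ethylene buds the level of week 12, 13.3 ± 3.25 CPM, was the highest mean of the 17 bud groups. Soltu.DM.08G010990 was at 7.16, 4.33, 3.65 and 5.33 CPM in ethylene buds, against 0.958 CPM in control replicate 3 and no counts in the other control buds. The fitted difference was 20.1-fold (log2 4.33 ± 0.92, SE, adjusted p = 0.000461, edgeR) and rested on control replicate 3. That library held 33 counts of the gene. Over 16 other fits, among them those that left out 1 library, its log2 fold change lay between 3.91 and 10.4. The size of its fold is thus uncertain. DESeq2 did not call this gene (adjusted p = 0.101), nor did edgeR's older fit (adjusted p = 0.0544). Neither gene had counts in week 12 flesh, under ethylene or in control.

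The largest falls under the same rule were those of Soltu.DM.06G018130 and Soltu.DM.05G023380. Soltu.DM.06G018130 was at 16.8, 13.98, 9.23 and 4.66 CPM in ethylene buds, against 101.9, 91.1, 72.3 and 43.1 CPM in control buds, with no overlap. It was 7.07-fold lower under ethylene (log2 fold change -2.82 ± 0.33, SE, adjusted p = 6.99e-09, edgeR). In week 12 flesh it was at 16.0 ± 8.80 CPM under ethylene, against 104.6 ± 44.7 CPM in control (SD, n = 4 each), a log2 fold change of -2.72 ± 0.29 (SE, adjusted p = 2.12e-11, edgeR). In buds it was also called lower at weeks 6, 9 and 15, with log2 fold changes of -1.16, -1.13 and -2.06 (adjusted p = 0.00147, 0.004 and 6.35e-08, edgeR), and at weeks 16 to 18, in air after ethylene, its difference from control was between -0.43 and -0.07 on the log2 scale and not called. Soltu.DM.05G023380 was at 0.827, 2.06, 2.22 and 2.71 CPM in ethylene buds, against 11.9, 17.6, 15.7 and 10.2 CPM in control buds. It was 6.94-fold lower (log2 -2.80 ± 0.41, SE, adjusted p = 2.32e-06, edgeR). In control buds it had no counts at weeks 0 and 3, 1.83 ± 0.62 CPM at week 9 and 38.6 ± 8.97 CPM at week 15, while ethylene buds held 4.31 ± 2.34 CPM at week 15. After the return to air its level was 17.9 ± 1.94 CPM at week 16, against 23.7 ± 5.42 CPM in control buds (adjusted p = 0.692, edgeR).

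Changes of smaller fold but large amount were found in abundant genes. Soltu.DM.09G027700 was at 4256, 3625, 3208 and 2662 CPM in ethylene buds, against 1637, 1810, 2065 and 1808 CPM in control buds, 1.88-fold higher (log2 fold change 0.91 ± 0.25, SE, adjusted p = 0.0101, edgeR). Soltu.DM.10G016630 was at 1362, 1002, 1251 and 1487 CPM in ethylene buds, against 756, 668, 682 and 680 CPM in control buds, 1.83-fold higher (log2 0.87 ± 0.17, SE, adjusted p = 0.000175, edgeR). Soltu.DM.10G016630 was called higher in week 12 flesh as well, at between 77.1 and 109.3 CPM under ethylene and between 33.1 and 41.2 CPM in control (adjusted p = 0.000118, edgeR). Soltu.DM.01G039560 was at 2532, 3076, 2777 and 2320 CPM in ethylene buds, against 4127, 4236, 4212 and 4287 CPM in control buds, 1.58-fold lower (log2 -0.66 ± 0.10, SE, adjusted p = 6.22e-06, edgeR). Soltu.DM.02G017330 was at 2673, 2494, 2130 and 1652 CPM in ethylene buds, against 2926, 3601, 3190 and 3047 CPM in control buds, 1.43-fold lower (log2 -0.51 ± 0.17, SE, adjusted p = 0.0345, edgeR). The call of Soltu.DM.02G017330 was lost when any of 6 of the 8 libraries was left out, with adjusted p up to 0.271 without ethylene replicate 4. It was also lost with size factors and without the filter on low counts.

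**Figure D2:**
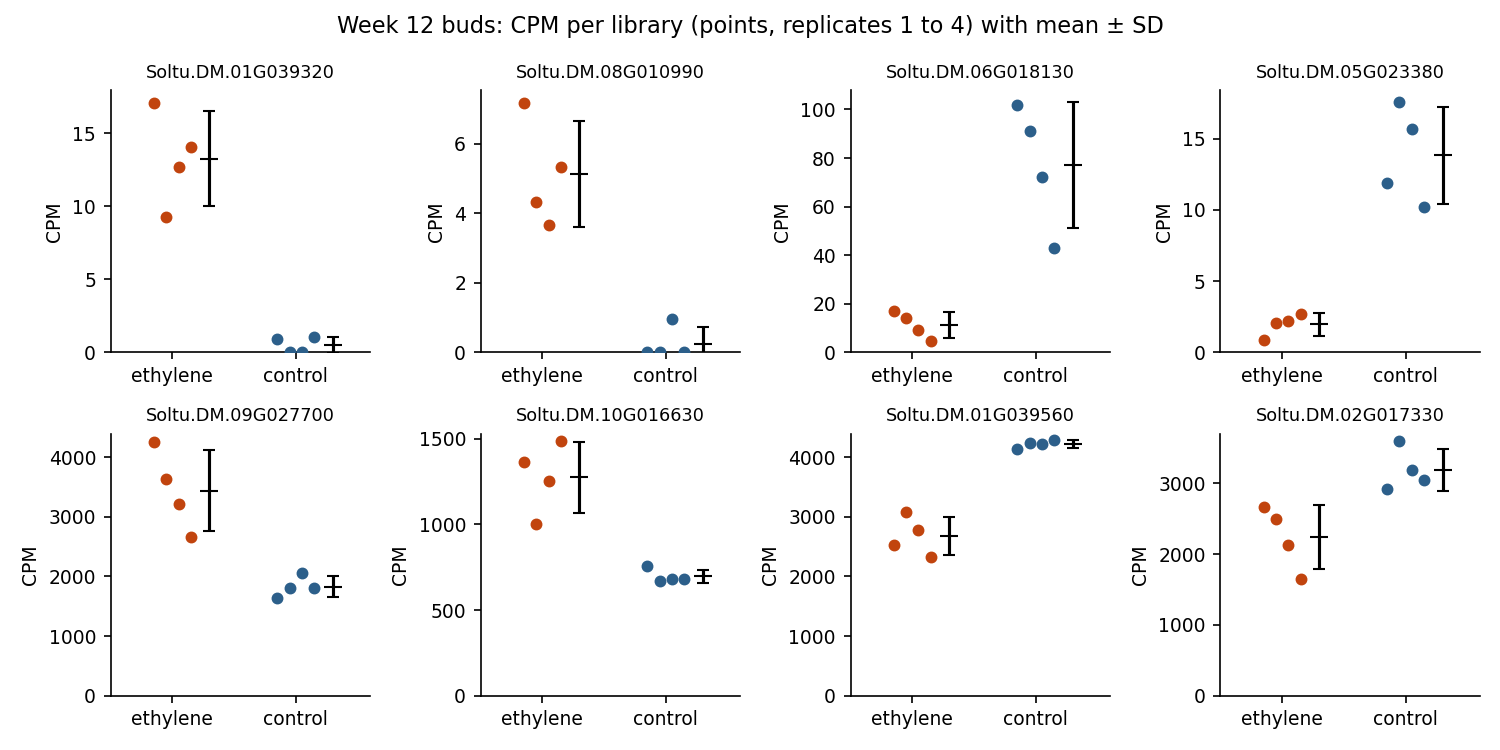
CPM of the 8 named genes in each of the 4 ethylene and 4 control buds of week 12 (points, replicates 1 to 4 from left to right; black marks, mean ± SD). The groups do not overlap in any panel, which the rule for naming these genes required; Soltu.DM.08G010990 had counts in only 1 control library.

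Genes that changed in 1 direction through control storage were mostly called at week 12, in the direction opposite to their course. Genes were classed by the control buds of weeks 0, 9 and 15, which hold no library of the week 12 comparison, as at least 2-fold higher or lower and past the threshold from week 0 to 9, from week 9 to 15, or both. Of 281 genes that rose in both intervals, 164 (58.4%) were lower and 1 was higher under ethylene at week 12, with a median log2 fold change of -1.31, against 6.17% lower, 5.47% higher and a median of -0.03 over all genes tested. Of the genes that fell in both intervals, 74 (60.2%) were higher and 0 were lower, with a median log2 fold change of 0.94. Both classes are descriptions, without a test of the class.

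The level of these classes was set against control week 9, as a mean of log2(CPM + 2). The class that rose in both intervals was at 0.08, 0.16, 0.09 and 0.06 in the 4 ethylene buds, against 0.69, 0.96, 0.91 and 0.56 in the 4 control buds of week 12. The ethylene buds thus lay close to control week 9, and no library of the groups overlapped. The class that fell in both intervals was at 0.27, 0.25, 0.43 and 0.40 in ethylene buds, against -0.48, -0.35, -0.26 and -0.17 in control buds, again with no overlap. At week 15 the first class averaged 0.33 ± 0.25 in ethylene buds and 1.57 ± 0.20 in control buds, and at week 16, after 1 week in air, 1.19 ± 0.08 in buds after ethylene and 1.34 ± 0.08 in control buds (SD, n = 4 each). The second class averaged -0.27 ± 0.07 in ethylene buds and -1.26 ± 0.06 in control buds at week 15, and -0.88 ± 0.11 in buds after ethylene and -1.06 ± 0.04 in control buds at week 16. The control values of weeks 9 and 15 chose the classes, so the differences at those weeks share libraries with the choice.

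**Figure D3:**
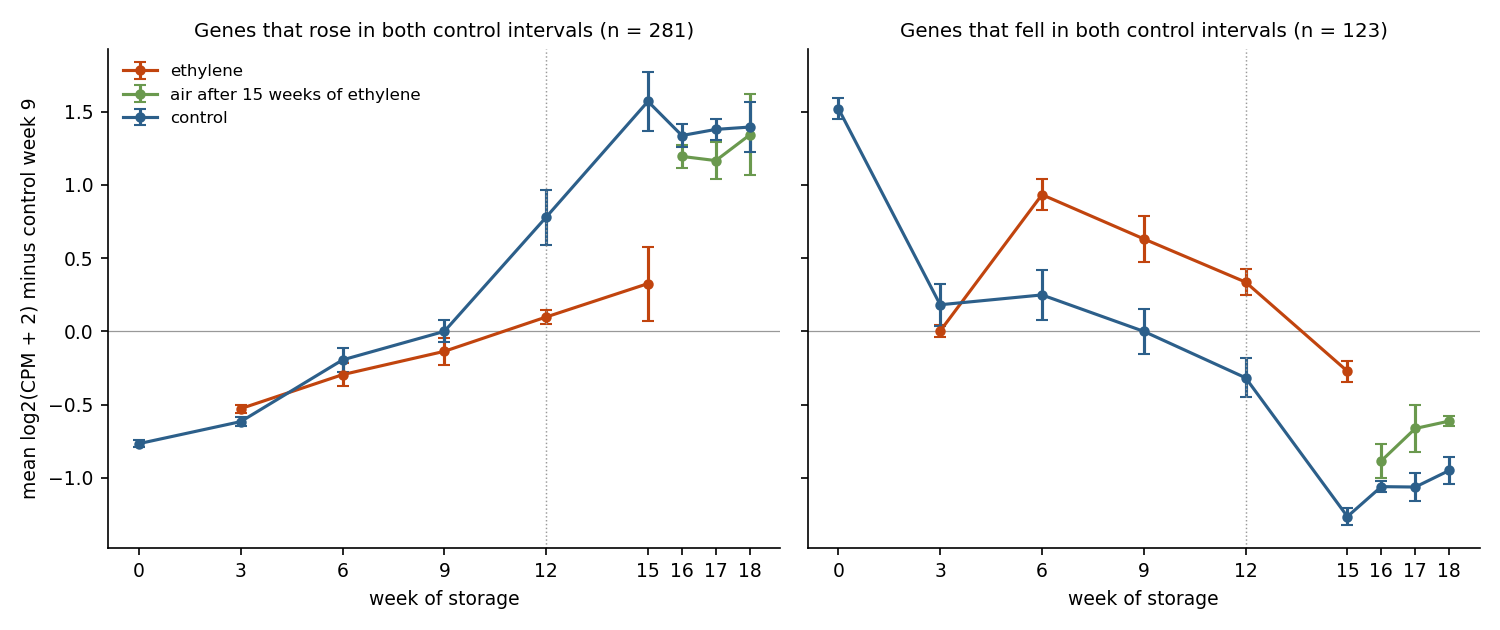
Mean log2(CPM + 2) relative to control week 9 of the 281 genes that rose and the genes that fell in both control intervals, by week of storage, in ethylene buds (orange), buds in air after ethylene (green) and control buds (blue); bars are SD over 4 libraries. At week 12 (dotted line) the rising class was at 0.10 under ethylene and 0.78 in control, and the falling class at 0.34 and -0.32.

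The single intervals gave smaller shares in the same directions, to be read against 5.47% higher and 6.17% lower over all genes tested. They include the genes that changed in both intervals, so part of this lean is shared with the classes above. Of the 4050 genes that fell from week 0 to 9, 18.7% were higher and 1.41% lower under ethylene at week 12, and of the 3169 that rose, 2.05% were higher and 15.2% lower. Of the 4944 genes that rose from week 9 to 15, 4.27% were higher and 11.8% lower. Of the 2855 that fell, 8.72% were higher and 4.41% lower, with a median log2 fold change of only 0.01. Some genes turned back: of the 2190 that fell and then rose, 9.04% were higher and 1.96% lower. These went against the direction of the class that rose from week 9 to 15. Of the 1498 that rose and then fell, 2.80% were higher and 6.48% lower, the last close to the share of all genes. The 13402 genes in no class were 55.1% of the genes tested and held 32.6% of the week 12 calls.

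Ethylene and control buds of the other weeks are separate libraries, so the week 12 calls were followed in them. Of the 1330 genes higher at week 12, the shares also called higher were 7.89% (week 3), 41.4% (week 6), 40.3% (week 9) and 55.6% (week 15), where 2.63%, 8.2%, 4.86% and 13.7% of all genes tested were called higher. Of the 1502 genes lower at week 12, the shares also called lower were 6.92% (week 3), 15.3% (week 6), 26.3% (week 9) and 56.4% (week 15), against 2.54%, 7.09%, 4.66% and 17.1% of all genes. Calls in the opposite direction were made for 59, 28, 1 and 57 of the higher genes at weeks 3, 6, 9 and 15. These were 4.44%, 2.11%, 0.0752% and 4.29% of the list, where 2.54%, 7.09%, 4.66% and 17.1% of all genes were called lower. Of the lower genes, 26, 68, 5 and 68 were called higher, or 1.73%, 4.53%, 0.333% and 4.53%. Of all genes, 2.63%, 8.2%, 4.86% and 13.7% were called higher at these weeks. At week 3 the higher genes had a median log2 fold change of -0.06 and 42.7% of them were above 0, so as a group they did not lean the way of week 12. No call in the same direction was made at any other ethylene week for 344 of the higher (25.9%) and 323 of the lower genes (21.5%). At all 4 other weeks, 26 (1.95%) and 11 (0.732%) were called in the same direction. These counts over several weeks were not made for all genes tested, so they have no share to be read against. In air after ethylene, the higher genes were called higher in shares of 8.12% (week 16), 36.3% (week 17) and 20.6% (week 18), against 0.769%, 11.3% and 2.11% of all genes. Of the lower genes, 6.06%, 17.6% and 11.1% were called lower at weeks 16, 17 and 18, against 1.28%, 4.51% and 1.25%. Week 17 holds the library that stood apart; without it, 24.2% of the higher genes were called higher and 6.46% of the lower genes lower at week 17, against 3.15% and 0.947% of all genes in that fit. Seen from the other lists, the week 12 higher genes were 45.3% of the genes called higher at week 9 and 22.2% of those at week 15. The weeks share 1 estimate of the spread per gene, so their calls are not fully independent.

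**Figure D4:**
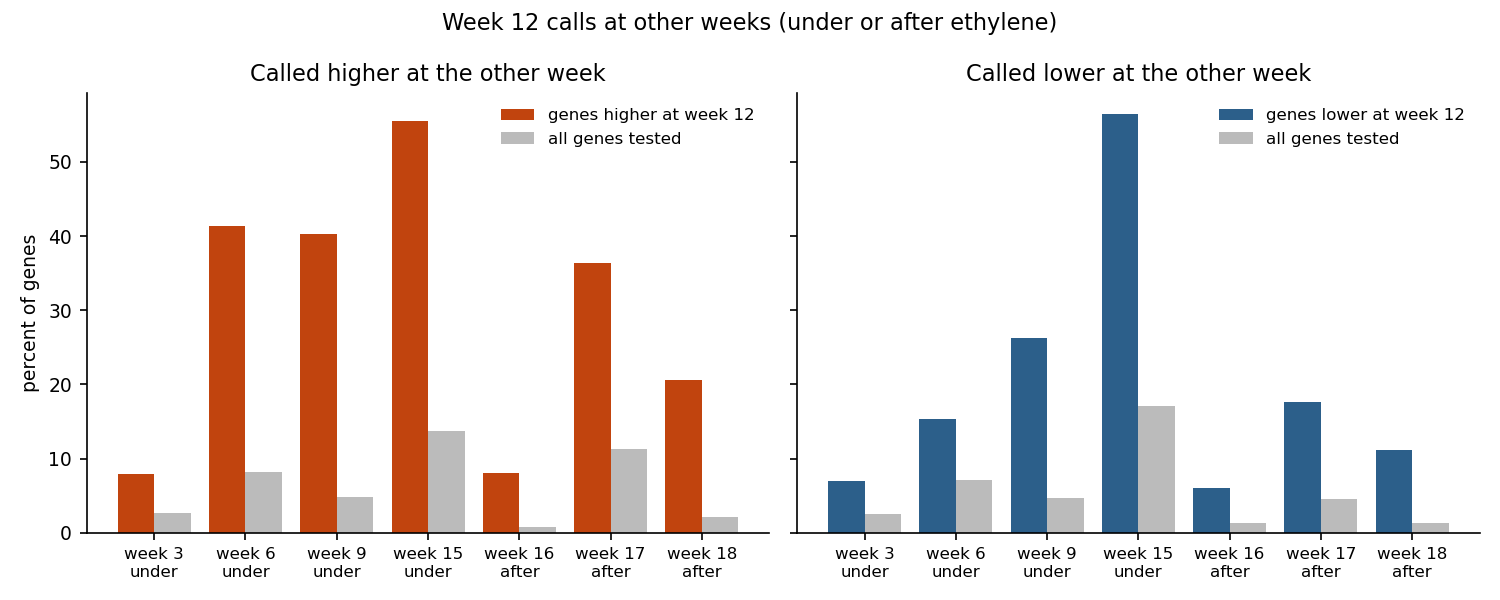
Percent of the 1330 genes higher (left, orange) and the 1502 genes lower (right, blue) at week 12 that were called in the same direction at each other week under ethylene or after ethylene, beside the percent of all genes tested (grey). The share peaked at week 15, at 55.6% and 56.4%, where the share of all genes, 13.7% and 17.1%, was highest too.

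The size of the ethylene effect at week 12 was tested against its mean at weeks 3, 6, 9 and 15. It differed in 576 genes (2.37%), 256 of them (1.05%) with a more positive and 320 (1.32%) with a more negative effect at week 12 (edgeR, adjusted p below 0.05). The split turned round with size factors (290 and 253) and with no filter on low counts (275 and 212). Without ethylene replicate 4 of week 12 the count was 95, without control replicates 2 or 3 it was 239 and 335, without ethylene replicate 3 it was 351, and without the week 17 library that stood apart it was 1368. The named genes of this test each had a group without counts, so their levels are given in place of a fitted fold. Soltu.DM.09G025540 was at 3.60, 3.99, 9.17 and 13.01 CPM in ethylene buds, against 3.62, 1.80, 2.67 and 3.05 CPM in control buds of week 12, and its effect was more positive than at the other weeks (adjusted p = 0.0373, edgeR). The week 12 groups of this gene overlapped. Its call was lost without any of 9 of the 40 libraries, with an adjusted p of 1 without control replicate 1 of week 9. Soltu.DM.04G011110 was at 1.52 ± 1.14 CPM in ethylene and 1.03 ± 0.37 CPM in control buds of week 12 (SD, n = 4 each), while at week 15 ethylene buds had no counts (adjusted p of the difference = 0.03005, edgeR). Its call was lost without any of 5 libraries (adjusted p up to 0.355, without ethylene replicate 4) and in DESeq2 (0.13).

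On the more negative side, Soltu.DM.10G003310 was at 2.77, 2.65, 1.96 and 1.38 CPM in ethylene buds, against 5.11, 8.20, 8.01 and 4.71 CPM in control buds of week 12, with no overlap (adjusted p of the difference from the other weeks = 0.00161, edgeR). Control buds held more of this gene at week 12, 6.51 ± 1.86 CPM, than at any other week, where their means were between 0 and 2.74 CPM. Its call held without each of the 40 libraries. Soltu.DM.05G025140 was at 1.22, 0.962, 0.788 and 0.576 CPM in ethylene buds, against 2.81, 8.20, 5.52 and 3.37 CPM in control buds of week 12. Its adjusted p was 0.0417 (edgeR), and the call was lost without any of 28 of the 40 libraries.

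Between weeks 9 and 12 the ethylene effect differed in 0.448% of the genes tested, 44 genes (0.181%) with a more positive and 65 (0.267%) with a more negative effect at week 12. The count rested on few libraries, with 6 genes without ethylene replicate 4 of week 12 and 215 without ethylene replicate 1. It was 41 to 67 without ethylene replicate 3 or control replicates 2 or 3 of week 12, ethylene replicates 1 or 2 of week 9, or control replicates 1, 2 or 3 of week 9. Other tools gave 501 (DESeq2) and 59 (only the 4 groups compared). Soltu.DM.08G021330 was at 49.7, 60.5, 123.8 and 230.4 CPM in ethylene buds, against 14.2, 15.6, 18.6 and 29.02 CPM in control buds of week 12, so that the ethylene buds of 1 group spanned a more than 4-fold range. At week 9 it averaged 9.91 ± 1.95 CPM in ethylene and 9.58 ± 2.81 CPM in control buds (SD, n = 4 each). Its effect was 2.51 ± 0.55 higher on the log2 scale at week 12 (SE, adjusted p = 0.0206, edgeR), and 1.96 (adjusted p = 0.0929) without ethylene replicate 4. Soltu.DM.12G029260 averaged 6.99 ± 1.32 CPM in ethylene and 7.83 ± 1.53 CPM in control buds at week 12, whereas at week 9 ethylene buds had no counts and control buds 1.66 ± 2.05 CPM (adjusted p of the difference = 0.0232, edgeR, and 0.0756 without control replicate 1 of week 9). In the other direction, Soltu.DM.01G027980 averaged 6.65 ± 4.27 CPM in ethylene and 0.129 ± 0.26 CPM in control buds at week 9, and 2.82 ± 1.89 CPM in ethylene and 1.71 ± 0.50 CPM in control buds at week 12 (adjusted p = 0.0404, edgeR). Soltu.DM.04G030230 averaged 9.23 ± 2.62 CPM in ethylene and 1.99 ± 1.73 CPM in control buds at week 9, and 0.959 ± 0.74 CPM in ethylene and 1.74 ± 0.51 CPM in control buds at week 12 (adjusted p = 0.0449, edgeR). The calls of Soltu.DM.01G027980 and Soltu.DM.04G030230 were lost without any of 9 and 13 of the 16 libraries. Those of Soltu.DM.12G029260 and Soltu.DM.08G021330 were lost without any of 5 and 3. With only the groups compared, none of these genes kept its call (adjusted p from 0.0946 to 0.155, edgeR).

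Between weeks 12 and 15 the effect differed in 2562 genes (10.5%), 1381 (5.68%) with a more positive and 1181 (4.85%) with a more negative effect at week 15. With DESeq2's size factors the split was 1077 and 1388. Without ethylene replicate 4 of week 12 the count was 1571, and without the week 17 library that stood apart 4401. Soltu.DM.03G016750 was at 26.3, 11.5, 7.39 and 3.05 CPM in ethylene buds, against 8.21, 18.3, 21.1 and 16.9 CPM in control buds of week 12, with overlap. At week 15 it averaged 60.8 ± 19.8 CPM in ethylene and 5.41 ± 5.62 CPM in control buds (SD, n = 4 each), an effect 3.91 ± 1.07 higher on the log2 scale than at week 12 (SE, adjusted p = 0.011, edgeR). Soltu.DM.04G026490 was at 18.7, 7.66, 14.1 and 23.3 CPM in ethylene buds, against 3.50, 3.06, 2.38 and 3.90 CPM in control buds of week 12, without overlap. At week 15 it averaged 1.57 ± 1.98 CPM in ethylene and 5.95 ± 2.14 CPM in control buds, and the effect was 4.23 ± 1.18 lower on the log2 scale than at week 12 (SE, adjusted p = 0.0136, edgeR). Both calls held without each of the 16 libraries. Soltu.DM.02G001170 averaged 10.4 ± 1.96 CPM in ethylene and 1.73 ± 1.82 CPM in control buds at week 12, and 7.87 ± 3.59 CPM in ethylene buds with no counts in control buds at week 15 (adjusted p of the difference = 0.0437, edgeR). Soltu.DM.01G020220 averaged 0.464 ± 0.54 CPM in ethylene and 1.21 ± 0.81 CPM in control buds at week 12, and 0.219 ± 0.44 CPM in ethylene and 7.27 ± 2.55 CPM in control buds at week 15 (adjusted p = 0.0432, edgeR). The calls of Soltu.DM.02G001170 and Soltu.DM.01G020220 were lost without any of 12 and 8 of the 16 libraries.

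In flesh of the same week, 225 genes were higher (0.906%) and 249 lower (1%) under ethylene, of 24835 tested in the fit of both tissues. Of the 1330 genes higher in buds, 8.12% were also called higher in flesh, and these were 48% of the flesh list. Of the 1502 genes lower in buds, 90 were called lower in flesh, 5.99% of the bud list and 36.1% of the flesh list. Opposite calls were made for 0 and 2 genes. The bud genes had a median log2 fold change in flesh of 0.25 for the higher and -0.09 for the lower list, and their medians in buds were 0.90 and -0.76.

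The effect itself differed between tissues at week 12 in 145 genes (0.584%), more positive in buds in 0.407% and more negative in 0.177% (edgeR). Without ethylene bud replicate 4 the count was 54, without control bud replicate 2 it was 74, and without the week 17 library that stood apart 298. Soltu.DM.05G022690 was at 10.6, 14.2, 27.4 and 40.97 CPM in ethylene buds, against 5.41, 2.32, 3.34 and 4.91 CPM in control buds, and flesh held 11.9 ± 3.99 CPM under ethylene and 9.91 ± 0.24 CPM in control (SD, n = 4 each). The effect was 2.32 ± 0.36 higher in bud on the log2 scale (SE, adjusted p = 4.6e-05, edgeR). The adjusted p was 0.147 in DESeq2, and 0.0658 in edgeR with only the groups compared. Soltu.DM.06G021110 was at 5.98, 4.78, 5.29 and 6.13 CPM in ethylene buds, against 0.883, 0.717, 0.779 and 0.571 CPM in control buds. In flesh it was at 1.12, 0, 0 and 0 CPM under ethylene, against 0.527 to 1.22 CPM in control (adjusted p of the difference = 0.0278, edgeR, and 0.476 in DESeq2). The edgeR call of Soltu.DM.06G021110 was lost without any of 8 of the 16 libraries. Soltu.DM.02G028580 was at 4.45, 4.30, 2.02 and 3.88 CPM in ethylene buds and 7.52, 8.55, 6.87 and 4.67 CPM in control buds, while flesh held 5.53 ± 1.28 CPM under ethylene and 1.73 ± 0.59 CPM in control. Its effect was 2.63 ± 0.55 lower in bud on the log2 scale (SE, adjusted p = 0.00384, edgeR; 0.327 in DESeq2). Soltu.DM.03G012710 was at 5.29, 6.13, 4.64 and 7.03 CPM in ethylene buds and 10.6, 14.6, 14.6 and 8.70 CPM in control buds, and at 2.35 ± 1.78 CPM under ethylene and 0.884 ± 0.19 CPM in control in flesh (adjusted p = 0.0276, edgeR, and 0.271 without ethylene flesh replicate 3).

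The tissue label was checked with genes at least 16-fold apart between bud and flesh at week 0. The 364 genes of the bud list summed to between 10598 and 13446 CPM in ethylene buds and between 7729 and 8760 CPM in control buds of week 12, against 603 to 775 CPM in ethylene flesh and 328 to 352 CPM in control flesh. The buds thus carried the bud list far above flesh, and the ethylene buds lay above the control buds without overlap. Of the 364 genes, 149 were higher and 34 lower under ethylene at week 12 (40.9% and 9.34%, against 5.47% and 6.17% of all genes tested). At 64-fold, the 180 genes left summed to between 3553 and 4224 CPM in ethylene buds and between 3110 and 3684 CPM in control buds, and the groups overlapped. The flesh list held 9 genes, which summed to 6.92 to 9.84 CPM in ethylene buds and 7.76 to 12.7 CPM in control buds, against 65.8 to 138 CPM in ethylene flesh and 52.5 to 88.8 CPM in control flesh. None of the 9 was called in buds. A larger share of bud tissue in a sample and more RNA of these genes per cell cannot be told apart in bulk RNA, and the part of the tissue makeup in the week 12 calls was not tested. Among the 16181 genes less than 2-fold apart between tissues at week 0, 418 were higher and 936 lower. Of all 24328 genes tested, 1330 were higher and 1502 lower, so the higher list shrank more than the lower list. The share called was 8.37%, against 11.6% of all genes tested.

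Genes called at week 12 lay next to each other in the numbering of the identifiers in some cases. An adjacent tested identifier was called in the same direction for 344 of the 1330 higher genes (25.9%) and 277 of the 1502 lower genes (18.4%), whereas 10.5% and 11.9% of all genes tested had an adjacent identifier called higher and lower. The longest run of higher genes held 7 identifiers, from Soltu.DM.03G015460 to Soltu.DM.03G015540, and the longest run of lower genes held 9, from Soltu.DM.10G018680 to Soltu.DM.10G018780. Neighbouring copies can share reads, and how such reads were counted is not stated in the labels. By the chromosome in the identifier, between 9.79% (chromosome 11) and 13.95% (chromosome 9) of the tested genes were called.

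The share of a gene's counts that fell on each of its transcripts changed in 27 of 5690 genes with 2 or more transcripts tested (0.475%), and 679 genes had an unadjusted p below 0.05 (edgeR, diffSpliceDGE). Of the 27 genes, 4 also passed the threshold at the gene level. Without control replicate 2, ethylene replicate 4 or control replicate 1, the count was 15, 16 and 46, and without the week 17 library that stood apart it was 62. In Soltu.DM.10G018380, transcript Soltu.DM.10G018380.1 held 100%, 96.02%, 100% and 98.9% of the counts in ethylene buds, against 29.4%, 29.3%, 28.6% and 27.3% in control buds (adjusted p = 2.2e-09, edgeR). Its only other tested transcript, Soltu.DM.10G018380.2, was at 0, 1.33, 0 and 0.508 CPM in ethylene buds, against 22.4, 24.1, 20.8 and 24.1 CPM in control buds. The sum of both transcripts was 33.3 to 46.7 CPM in ethylene buds and 29.05 to 34.1 CPM in control buds, and the gene was not called at the gene level (adjusted p = 0.206, edgeR).

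The control buds of week 12 were the group that departed from the rest for Soltu.DM.10G018380. The share of its transcript 1 was under 50% in all 4 of them and in 6 of the 60 bud libraries of other groups, where it lay between 28.04% and 35.8%; in the other libraries outside week 12 it was between 57.6% and 100%. Those 6 were 2 ethylene buds of week 3, 1 ethylene bud of week 6, 1 bud each of weeks 16 and 18 after ethylene and 1 control bud of week 15. The shares come from the authors' assignment of reads to transcripts, which was not tested. In Soltu.DM.11G007750, with 4 transcripts, the transcript Soltu.DM.11G007750.5 held 86.9%, 30.1%, 35.5% and 26.5% of the counts in ethylene buds, against 52.7%, 92.9%, 87.4% and 92.7% in control buds (adjusted p = 0.000291, edgeR). Ethylene replicate 1 lay among the control values, and control replicate 1 lay below it, so the groups overlapped.

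**Figure D5:**
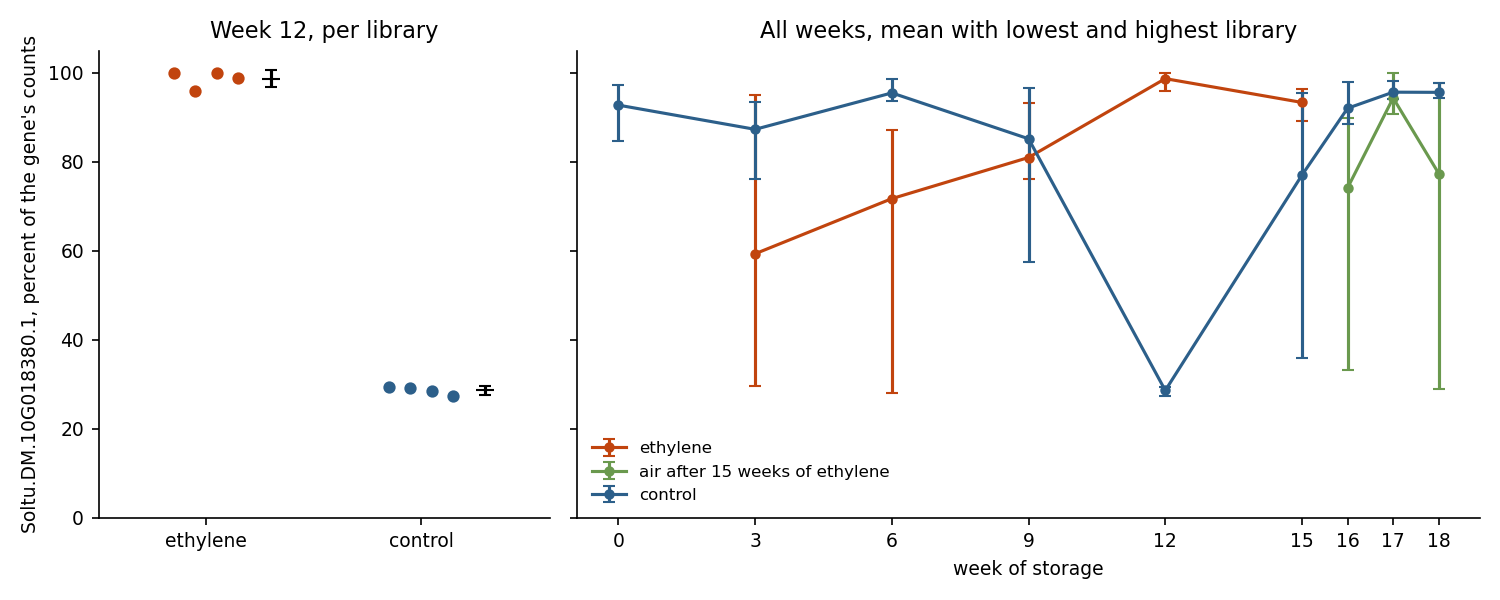
Share of the counts of Soltu.DM.10G018380 that fell on its transcript 1, per library at week 12 (left: points, replicates 1 to 4; black marks, mean ± SD) and by week (right: mean with the lowest and highest of 4 libraries) in ethylene buds (orange), buds in air after ethylene (green) and control buds (blue). The week 12 ethylene buds were between 96.02% and 100% and the control buds between 27.3% and 29.4%; single libraries of other groups reached down to 28.04%.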

How the data were processed

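RNA came from a Qiagen RNeasy Plant Mini kit, per the labels' protocols. Trimmomatic, HISAT2, SAMtools and StringTie appear in the submitters' processing notes; no version, genome build or annotation is given in the sources used here. Whole-number counts per gene and per transcript were deposited by the authors, with no normalization. The row that names no gene (2.19% to 2.35% of counts in the 8 libraries) was left out. CPM were computed from the deposited counts. The 68 bud libraries were fitted together (R 4.3.3) by edgeR 4.0.16 (its current quasi-likelihood fit; TMM; minimum count 10, minimum total 15; 51 residual degrees of freedom; Benjamini-Hochberg threshold 0.05), and both tissues together for flesh. DESeq2 1.42.0 was an alternative. The steps were tested on simulated data. SEs were derived from the F statistic. Genes were named by largest fold with at least 5 CPM in a group (no overlap at week 12), or largest CPM difference at week 12, at most 2 per direction; transcript genes by smallest p. The members, lists and classes were chosen with earlier results of these data known. Planned lists of named pathways could not be matched and were not used.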

Additional observations from a re-analysis of the deposited data

Results flagged for a closer look

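Within groups of 4 libraries, 82 sets of values were checked for 1 library far from the other 3, of which chance flags about 1 in 20, and 9 were found. Ethylene bud replicate 1 held 13446 CPM of the bud list, where the other 3 held 10598 to 11036, and control bud replicate 3 held 8760 CPM, where the others held 7729 to 7887. Control flesh replicate 1 held 328 CPM of that list, against 348 to 352 in the others. Control bud replicate 4 had 28.2 M counts, against 34.5 to 35.3 M in the others. Soltu.DM.08G010990 was at 0.958 CPM in control replicate 3 and at 0 in the others, Soltu.DM.10G016630 at 756 CPM in control replicate 1 and 668 to 682 CPM in the others, and Soltu.DM.01G020220 at 0 in control replicate 2 and 1.49 to 1.70 CPM in the others. The share of transcript Soltu.DM.11G007750.5 was 86.9% in ethylene replicate 1 and 26.5% to 35.5% in the others, and 52.7% in control replicate 1 and 87.4% to 92.9% in the others.

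Effects of ethylene differed by an interaction test in 2.37% of the genes tested between week 12 and the other weeks, 0.448% between weeks 9 and 12, 10.5% between weeks 12 and 15 and 0.584% between bud and flesh. The named genes of these tests had adjusted p-values (edgeR) of 0.0373, 0.03005, 0.0417 and 0.00161 (Soltu.DM.09G025540, Soltu.DM.04G011110, Soltu.DM.05G025140 and Soltu.DM.10G003310, other weeks), 0.0232, 0.0206, 0.0404 and 0.0449 (Soltu.DM.12G029260, Soltu.DM.08G021330, Soltu.DM.01G027980 and Soltu.DM.04G030230, week 9), 0.0437, 0.011, 0.0136 and 0.0432 (Soltu.DM.02G001170, Soltu.DM.03G016750, Soltu.DM.04G026490 and Soltu.DM.01G020220, week 15), and 0.0278, 4.6e-05, 0.00384 and 0.0276 (Soltu.DM.06G021110, Soltu.DM.05G022690, Soltu.DM.02G028580 and Soltu.DM.03G012710, flesh).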

How the results depend on the processing

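The count of genes called at week 12 (2832) stayed within 1.5 times under DESeq2's size factors (2750), no filter (2595), DESeq2's test (2694), edgeR's older fit (2420, added after seeing the data) and only the 8 libraries (2883), and no called gene changed sign in these fits or without any single library (67 genes were not tested in the fit of 8 libraries). It was 504 when tested against 1.5-fold, which asks for a larger change. Among the 16181 genes under 2-fold apart between tissues it was 1354, or 8.37%, against 11.6% of all genes tested. Leaving out 1 library gave 1858 to 2597 genes for the week 12 effect, 95 to 683 for its difference from the other weeks, 6 to 215 for that from week 9, 1571 to 2681 for week 15 against week 12, 54 to 204 for bud against flesh and 15 to 46 for transcript usage. With week 17 replicate 1 (in air after ethylene) left out, these 6 counts were 3892, 1368, 296, 4401, 298 and 62. The difference from the other weeks gave 874 genes in DESeq2 and 1184 with only the groups compared; that from week 9 gave 501 and 59, and 215 in the older edgeR fit; bud against flesh gave 338 (157 more positive in bud and 181 more negative, so that the split turned round) and 47. The shares of the week 12 genes called at week 17 were also computed without that library, chosen after seeing the data. Causes of these shifts were not tested.

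No pairing of libraries by replicate number was seen (correlations of same-numbered deviations -0.04, 0.18, 0.04 and 0.07). Those of unlike numbers were between -0.23 and 0.28. Such correlations cannot show that no origin was shared. With the replicate number as a block, the week 12 effect gave 2982 genes and its difference from the other weeks 659. Week 15 against week 12 gave 2755 and bud against flesh 182. Each of these counts was within 1.5 times of the count without the block. The block count for the difference from the preceding sampled week alone is not given here, so this range does not cover that comparison. With only the 8 libraries and the block, the week 12 effect gave 2895 genes. The block could not be fitted for transcript usage and was not run there. With 4-fold classes, 63.2% of the genes that rose in both control intervals were lower and 45.8% of those that fell in both were higher under ethylene at week 12. The bud list at 64-fold (180 genes) averaged 3776 CPM in ethylene buds and 3349 CPM in control buds, with control replicate 3 (3684) above ethylene replicates 2 (3620) and 4 (3553), so the separation at 16-fold was lost; the flesh list then held 1 gene. Genes under 1 CPM were measured with the fewest counts. At this depth 0.958 CPM was 33 counts (Soltu.DM.08G010990, control replicate 3), while the other control buds of this gene held 0. The SEs come from the quasi-likelihood test, which takes in the spread between libraries.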
